A study of Drosophila melanogaster with 6 samples.

Results

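The BEAF-32 peaks of chromosome arm 2L of Drosophila melanogaster, the left arm of the second chromosome, were followed from the telomere (low coordinates) to the centromere in the wing imaginal disc. The members were all peaks of the deposited list whose chromosome name was exactly chr2L, 383 of 2609. The discs came from third-instar larvae of the strain spelled Orgon R in the labels, with no mutation or treatment named. The study made 4 libraries of chromatin precipitated with an antibody against BEAF-32B and 2 libraries of input chromatin, from the same tissue and strain. Per the labels, the material was 200 dissected discs, crosslinked in 1% formaldehyde over 10 min. The chromatin was broken to fragments of 200 to 500 bp. The authors deposited 1 list for the whole series, which names no library and has chromosome, start and end only. As the list holds no value per library, replicate spread and input background were not measured, and depth is unknown. Errors and p-values below describe how peaks were spread over this 1 list.

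BEAF-32, the boundary element-associated factor, is an insulator protein, one of the DNA-binding factors found at borders between chromatin domains in flies. It was first described at the scs' element, which flanks a heat-shock gene locus, and it binds clusters of the short motif CGATA. In other fly tissues and cell lines it is mostly found close to the start sites of active genes, often between a pair of genes that are read in opposite directions. The gene gives rise to the isoforms BEAF-32A and BEAF-32B, which differ in their DNA-binding end. The wing disc is the larval epithelial sac that later forms the wing and the adjoining body wall. The chromosome names of the list are those of Release 5 of the fly assembly, whereas the available gene annotation is of Release 6. Genes and DNA sequences at the 2L peaks were therefore not analysed here. Positions are given as deposited, with starts counted from 1.

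Arm 2L carried few peaks, and it carried them unevenly. Up to the end of its last peak the arm measured 22.9 Mb, and it held 16.7 peaks per Mb (exact Poisson 95% interval 15.1 to 18.5, which covers counting error only). The peaks covered 273 kb, or 1.19% of that length, against 1.56% on 3L, 1.61% on 3R and 1.80% on X. Full 1-Mb windows held 17.0 ± 10.7 peaks on 2L (SD, 22 windows), against 21.9 ± 8.89 on 3L (23 windows), 21.8 ± 8.68 on 3R (27 windows) and 26.2 ± 8.81 on X (22 windows). The median 2L window held 14.5 peaks, the lowest 5 and the highest 46. The variance of the 2L windows was 6.72 times their mean, where 3L had 3.62, 3R 3.46 and X 2.97 times.

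A quasi-Poisson model of the window counts, with 1 shared dispersion, compared 2L with each of the 3 arms, with Benjamini-Hochberg adjustment over the 3 comparisons. The shared dispersion was 4.14, below the variance-to-mean ratio of 2L itself (6.72) and above those of the other arms (2.97 to 3.62). The density intervals may therefore be too narrow for 2L and the p-values too small. A dispersion per arm was not fitted. The 2L density was 0.65-fold that of X (95% interval 0.50 to 0.85, adjusted p = 0.00578, n = 94 windows). It was 0.78-fold that of 3L (0.59 to 1.02) and 0.78-fold that of 3R (0.60 to 1.02), with an adjusted p of 0.0732 for both, so neither passed the threshold of 0.05. Among peaks at or above the median width of the list (657 bp) the difference from X no longer passed (adjusted p = 0.0799, n = 94 windows). Without the 2 Mb nearest the telomere of each arm, the differences from 3L (adjusted p = 0.0278) and 3R (adjusted p = 0.0184) did pass (n = 86 windows). That setting leaves out the densest window of 2L, with 46 peaks.

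**Figure D1:**
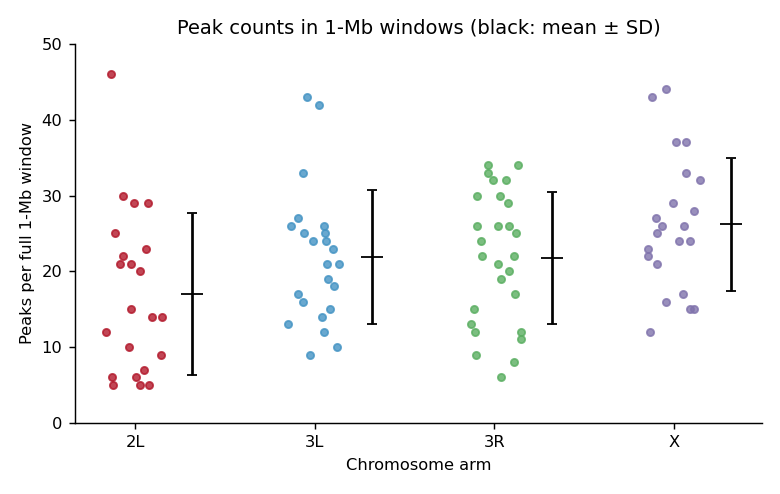
Peaks per full 1-Mb window (vertical axis) on 2L, 3L, 3R and X, 1 point per window, with the mean and SD over windows in black. The 2L windows run lowest, with 7 of 22 under 10 peaks, yet 1 of them holds 46, the highest count of the 4 arms.

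Windows with few peaks were a large part of the arm. Of the 22 full windows of 2L, 7 held fewer than 10 peaks, against 1 of 23 on 3L, 3 of 27 on 3R and 0 of 22 on X. These 7 windows together held 43 peaks, 11.2% of the arm. Another 5 windows held 10 to 19 peaks and the other 10 windows held 20 or more. Those 10 windows carried 266 peaks, 69.5% of the arm. At least 50% of the peaks of the full windows lay in the 7 densest windows on 2L, against 9 on 3L, 10 on 3R and 9 on X. In 100-kb windows counted from coordinate 0, 79 of 229 windows on 2L held no peak (34.5%), against 28.3% on 3L, 28.0% on 3R and 26.5% on X. These counts are descriptions, with no test and no adjustment for the lower density of 2L.

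Read from the telomere, dense and thin stretches took turns. The arm opened at the peak chr2L:72787-73775 and ran through its densest window, chr2L:1-1000000, with 46 peaks, then 21 and 14 peaks in the next windows. The density then dropped to 5 and 6 peaks between 3 and 5 Mb and came back to 15 peaks in the sixth window. From chr2L:6000001 to 9000000 the windows held 29, 25 and 29 peaks, 83 in all, the longest stretch of windows with 20 or more peaks. It was followed by a thin stretch in which the windows held 5, 10 and 6 peaks up to 12 Mb.

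Past the middle, dense and thin windows were paired more closely. The windows from chr2L:12000001 to 14000000 held 21 and 20 peaks and the next 2 windows held 5 and 9. A single dense window of 22 peaks (chr2L:16000001-17000000) was followed by 7 peaks and then by 23 and 30 peaks up to 20 Mb. The last 2 full windows held 12 and 14 peaks, and the remaining 875 kb to the last peak, chr2L:22874888-22875290, held 9. The densest windows were thus the first, the seventh, the ninth and the twentieth (46, 29, 29 and 30 peaks). The sparsest were chr2L:3000001-4000000, chr2L:9000001-10000000 and chr2L:14000001-15000000, with 5 peaks each, none of which had another peak within 5 kb, midpoint to midpoint.

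**Figure D2:**
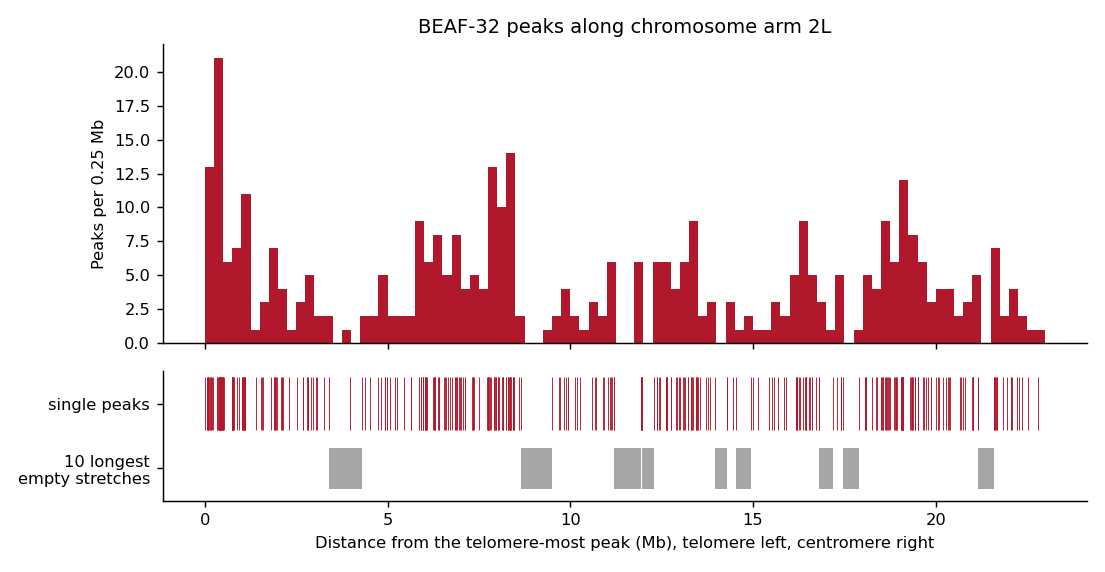
The 2L peaks along the arm, with distance from the telomere-most peak in Mb on the horizontal axis: peaks per 0.25 Mb (top), single peaks (red ticks) and the 10 longest stretches without a peak (grey bars). Dense groups at the telomere end, near 6 to 8 Mb and near 18 to 20 Mb stand between stretches that hold few peaks.

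The outermost 2 Mb of 2L were crowded at the telomere and thin at the centromere. Measured from the outermost peak, the first 1 Mb held 47 peaks and the first 2 Mb held 69, 18.0% of the arm. The corresponding first 2 Mb held 58 peaks on 3L (11.5%), 39 on 3R (6.43%) and 41 on X (7.11%). On 3L the first 2 Mb were also above the arm's density (29.0 against 21.9 per Mb), and so were its first 5 Mb (27.6 per Mb). Over the first 5 Mb of 2L the crowding was gone: 19.2 peaks per Mb, near the 16.8 per Mb of the whole span from the first to the last peak of 2L. The last 2 Mb toward the centromere held 23 peaks of 2L (6.01%), against 26 on 3L (5.16%), 45 on 3R (7.41%) and 37 on X (6.41%). That is 11.5 peaks per Mb on 2L, and on 3L the last 2 Mb were also below the arm's density (13.0 against 21.9 per Mb). Over the last 5 Mb, 2L held 17.8 peaks per Mb, no longer below the density of its span. Each end is 1 stretch per arm, so these differences have no test.

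Divided into 5 segments of equal length, each 4.58 Mb, 2L held 89, 101, 59, 50 and 84 peaks from telomere to centromere. The peak-rich segments were thus the first 2 and the last, with a low in the fourth. The density of the richest segment was 2.02 times that of the poorest on 2L, against 1.58 times on 3L, 1.48 times on 3R and 1.63 times on X.

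Stretches without a peak took up much of the arm. Neighbouring 2L peaks were a median of 23.8 kb apart, edge to edge, with quartiles of 5.53 and 71.7 kb, where the medians were 15.7 kb on 3L, 16.8 kb on 3R and 10.96 kb on X. Fewer peaks per Mb lengthen such distances by themselves, and the distances were not adjusted for the density of each arm. Of 382 neighbour distances on 2L, 74 (19.4%) were 100 kb or longer, against 13.9% on 3L, 15.0% on 3R and 11.1% on X. These 74 stretches added up to 15.2 Mb, or 66.7% of the span from the first to the last peak, against 58.6% on 3L, 60.8% on 3R and 55.9% on X. Stretches of 300 kb or longer numbered 11 on 2L and filled 22.2% of its span. On 3L there were 10 (18.6%), on 3R 8 (11.96%) and on X 8 (15.8%).

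The 10 longest empty stretches of 2L summed to 4.75 Mb, 20.8% of the span. The longest, chr2L:8735947-9572029 (836 kb), began within the dense ninth window, whose peaks already thinned out toward it. In the 500 kb before this stretch lay 19 peaks, and in the 500 kb after it lay 7. The next was chr2L:11278764-12000043 (721 kb), with 8 and 10 peaks in the flanks of 500 kb on its telomere and centromere sides. The stretches chr2L:3478882-4050596 (572 kb) and chr2L:4051070-4386771 (336 kb) were parted by a single peak of 473 bp. That peak, chr2L:4050597-4051069, was the most remote of the arm, with 336 kb free on its nearer side.

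Nearer the centromere the long stretches were chr2L:21221717-21669351 (448 kb), chr2L:17536900-17963108 (426 kb) and chr2L:16889406-17260530 (371 kb). The other members of the 10 were chr2L:14618216-15007783 (390 kb), chr2L:14022257-14348440 (326 kb) and chr2L:12046324-12365894 (320 kb). The stretch at 21.2 Mb lay between well-filled flanks, with 10 and 12 peaks in the 500 kb on either side. The 2 stretches at 14 Mb had 8 and 4 peaks in the flanks of the first and 4 and 4 in those of the second. The 19 peaks at the edges of the 10 stretches were 317 to 1047 bp wide with a median of 622 bp, and 12 of them were narrower than the median 2L peak (653 bp). Which genes or repeats these stretches hold was not analysed here.

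**Figure D3:**
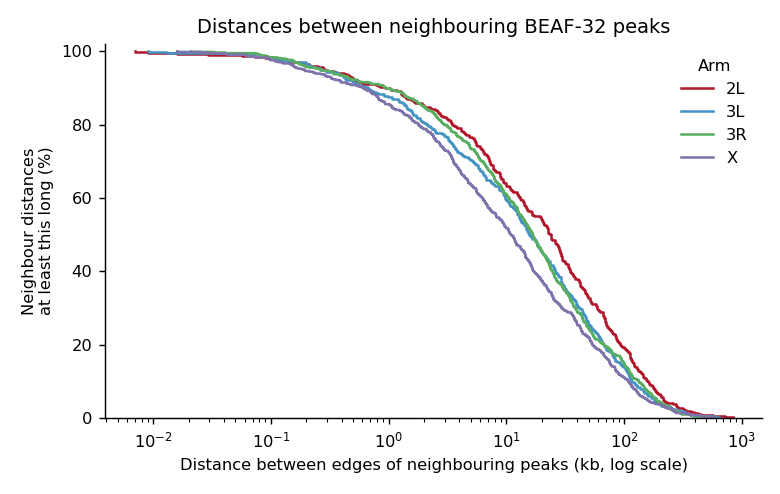
Share of neighbour distances (vertical axis, percent) that are at least as long as the distance on the horizontal axis (kb, edge to edge, log scale), for 2L, 3L, 3R and X. The 2L curve lies to the right of the others over most of the range from about 2 kb to 200 kb, with a median of 23.8 kb against 10.96 to 16.8 kb. Distances are not adjusted for the density of each arm.

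Remote peaks were part of the same picture. On 2L, 131 peaks (34.2%) had no other peak within 20 kb of their edges, against 25.6% on 3L, 22.7% on 3R and 17.2% on X. With a distance of 100 kb the counts were 21 on 2L, 15 on 3L, 16 on 3R and 4 on X. Neither comparison was adjusted for the density of each arm. The 21 remote 2L peaks were spread from chr2L:1460857-1461241 (385 bp) to the last peak of the arm. Groups of them lay between 2.3 and 4.6 Mb (6 peaks) and between 14 and 16 Mb (5 peaks). The groups included chr2L:2368269-2369043 (775 bp), chr2L:2585066-2585687 (622 bp), chr2L:3346467-3347022 (556 bp) and chr2L:14511843-14512181 (339 bp). The remote 2L peaks were 339 to 1047 bp wide with a median of 563 bp, and only chr2L:14617169-14618215 exceeded 1000 bp. Of the 21, 15 were narrower than the median 2L peak. Remote peaks were similar on 3L (median 553 bp, 11 of 15 under the arm's median) and 3R (589 bp, 11 of 16). On X the median was 734 bp, with 1 of 4 under the arm's median.

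Close neighbours were less frequent on 2L than on X. On 2L, 137 of 383 peaks (35.8%, Wilson 95% interval 31.1 to 40.7%) had another peak within 5 kb, midpoint to midpoint, against 44.4% on 3L, 39.4% on 3R and 52.7% on X. The Wilson interval takes peaks as independent. In a logistic model with errors clustered by 1-Mb window, the odds on 2L were 0.50 times those on X (95% interval 0.32 to 0.78, adjusted p = 0.00748, n = 2071 peaks). The odds were 0.70 times those on 3L (0.42 to 1.15, adjusted p = 0.231) and 0.86 times those on 3R (0.55 to 1.34, adjusted p = 0.5004), and neither passed (n = 2071 peaks). With the number of peaks in the same window as a covariate, the difference from X was smaller but still passed (adjusted p = 0.0237, n = 2071 peaks). At a distance of 2 kb it did not (21.1% on 2L against 28.2% on X, adjusted p = 0.358, n = 2071 peaks). Without the 2 Mb nearest the telomere of each arm, the difference from 3L passed (adjusted p = 0.0360, n = 1868 peaks).

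Closeness was itself concentrated toward the telomere. The shares of 2L peaks with another within 5 kb were 48.3%, 46.5%, 27.1%, 22% and 23.8% in the segments from telomere to centromere. The last 3 segments of 2L were below every segment of 3L, 3R and X, where the shares were 35.6 to 56.7%. On 3L the share was also highest in the first segment (56.7%) and lowest in the last (35.6%). It was highest in the fourth segment on 3R (47.7%) and in the last on X (56.4%). In the first 2 Mb of 2L the share was 55.1% (38 of 69), and in the rest of the arm it was 31.5% (99 of 314). The last segment, with 84 peaks, had about as low a share as the fourth, with 50.

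Linked at up to 5 kb between midpoints, 246 peaks of 2L stood alone and the others formed 54 runs: 35 of 2 peaks, 11 of 3 and 8 of 4 or 5. Runs spanned 1.23 to 12.5 kb, with a median of 3.77 kb. Runs of 4 or more held 34 peaks, 8.88% of the arm, against 13.3% on 3L, 8.73% on 3R and 17.5% on X. The largest 2L run had 5 peaks, whereas the largest had 13 on 3L, 11 on 3R and 8 on X. With linking at 2 kb no 2L run reached 4 peaks, and with linking at 10 kb 19 did.

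The runs of 4 or more fell into few places. In the first window lay chr2L:479229-486073 (5 peaks in 6.85 kb), chr2L:519060-527331 (4 peaks in 8.27 kb) and chr2L:841950-854484 (4 peaks in 12.5 kb). The first of these was packed most tightly of the 8, with 67.8% of its span inside peaks of 1300, 1158, 824, 619 and 741 bp. The run chr2L:5976449-5983620 (4 peaks in 7.17 kb) lay at the end of the sixth window, just before the dense stretch that starts at 6 Mb, and chr2L:7418264-7427730 (4 peaks in 9.47 kb) lay inside that stretch.

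The other 3 runs of 4 or more lay toward the centromere. They were chr2L:16521170-16528270 (4 peaks in 7.10 kb), chr2L:19122847-19127509 (4 peaks in 4.66 kb) and chr2L:19157801-19166418 (5 peaks in 8.62 kb). Both runs at 19.1 Mb lay within the same 100 kb (chr2L:19100001-19200000), which held 12 peaks. Only chr2L:400001-500000 held as many in 100 kb, and chr2L:500001-600000 followed with 11. Between 8.5 and 16 Mb there was no run of 4 and there were 2 runs of 3.

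**Figure D4:**
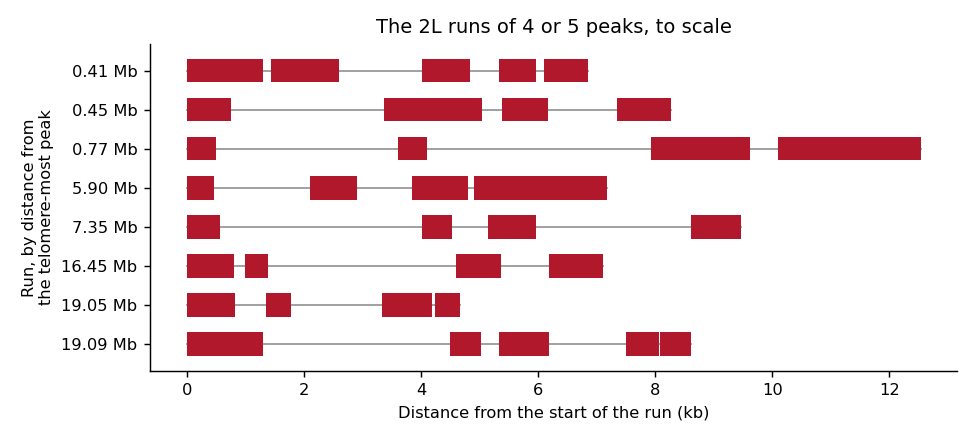
The 8 runs of 4 or 5 peaks on 2L drawn to scale, telomere side at the top: red blocks are peaks, and the horizontal axis is the distance from the start of each run in kb. Runs span 4.66 to 12.5 kb, and the widest peak of the arm (2442 bp) closes the third run.

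Some neighbours almost touched. On 2L, 29 of 382 neighbour distances (7.59%) were 500 bp or shorter, against 8.35% on 3L, 7.76% on 3R and 9.20% on X, with no test. The smallest gap, of 7 bp, parted peaks of 951 and 1010 bp at chr2L:815121-816071 and chr2L:816079-817088. The list does not show whether such neighbours are separate sites or 1 site that the caller divided. With peaks within 500 bp merged, the 54 runs became 39 and 1 run of 4 or more was left.

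No difference in peak width between 2L and the other arms passed the test. The median width on 2L was 653 bp. The quartiles were 515 and 818.5 bp, and the extremes 311 and 2442 bp. Peaks over 1000 bp numbered 51 (13.3%), against 15.3% on 3L, 16.5% on 3R and 12.5% on X. In a linear model of log2 width with errors clustered by 1-Mb window, the geometric mean width of 2L was 0.99 times that of 3L (95% interval 0.91 to 1.07). It was 0.96 times that of 3R (0.90 to 1.03) and 1.02 times that of X (0.95 to 1.097), with an adjusted p of 0.722 for all 3. Without the 2 Mb nearest the telomere, 2L peaks were narrower than those of 3R (log2 difference -0.11, adjusted p = 0.0264, n = 1868 peaks).

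Along the arm, width went down from the telomere toward the fourth segment. The median widths of the 5 segments were 715, 656, 626, 587 and 620.5 bp, a range of 128 bp, against 58.0 bp on 3L, 61 bp on 3R and 27.0 bp on X. The share of 2L peaks over 1000 bp went down through all 5 segments, the last included, at 20.2%, 12.9%, 11.9%, 10.0% and 9.52%. On 3L this share differed more between segments, at 23.1%, 18.6%, 9.20%, 3.53% and 16.8%, and it lay between 13.6 and 21.2% on 3R and between 8.93 and 15.4% on X. The first 2 Mb of 2L had a median of 747 bp against 627 bp in the rest of the arm, and 15 of the 51 peaks over 1000 bp. The first window alone had a median of 801.5 bp and 12 such peaks. A wide telomere end was also present on 3L (816 against 645 bp), but not on 3R (648 against 680.5 bp), and on X the values were 669 and 627 bp. Density and width did not always go together on 2L: the dense ninth window had a median of 582 bp and 2 peaks over 1000 bp. These values are descriptions, with no test along the arm.

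**Figure D5:**
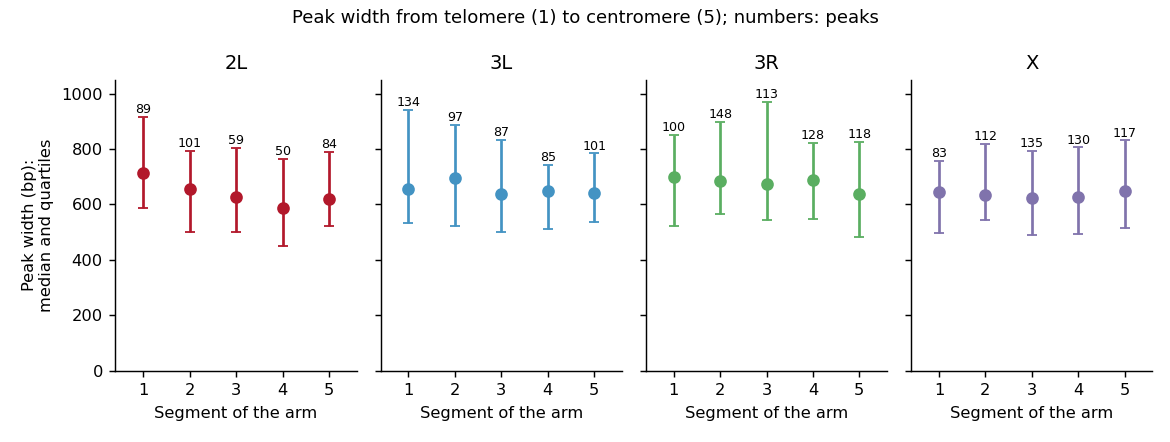
Peak width in bp (points, medians; bars, quartiles) in each of the 5 segments of 2L, 3L, 3R and X from telomere (1) to centromere (5), with the number of peaks above each bar. On 2L the medians go down from 715 to 587 bp over the first 4 segments, while those of the other arms stay within 623 to 697.5 bp.

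Over the whole of 2L, peaks with a close neighbour were wider than peaks without. The 137 peaks with another within 5 kb had a median width of 700 bp (quartiles 540 and 914 bp), against 619.5 bp (492.5 and 788.25 bp) for the other 246. The geometric mean was 1.16 times as large (95% interval 1.07 to 1.26, p = 0.000353, linear model of log2 width with errors clustered by 1-Mb window, n = 2071 peaks of 4 arms in the fit). The median went down step by step with the distance to the nearest midpoint. It was 719 bp under 2 kb (81 peaks), 673 bp at 2 to 5 kb (56), 649.5 bp at 5 to 20 kb (114), 590 bp at 20 to 100 kb (111) and 563 bp beyond 100 kb (21). By segment from telomere to centromere, the median widths of peaks with and without a close neighbour were 759 and 663.5 bp, 707 and 616.5 bp, 628.5 and 605 bp, 670 and 563 bp, and 608.5 and 626 bp. The last segment, with 20 close and 64 other peaks, thus went the other way. So did the last segments of 3L (610.5 and 664 bp), 3R (622 and 641.5 bp) and X (608.5 and 661 bp). The fourth segment of 3L (622 and 655 bp) and the first of 3R (660 and 699 bp) did so too. Both close neighbours and wide peaks were frequent at the telomere end of 2L. Without its 2 Mb the log2 difference was 0.15 in place of 0.21 (p = 0.00964, n = 1868 peaks of 4 arms). With a distance of 2 kb it was 0.15 and did not pass (p = 0.0590, n = 2071 peaks of 4 arms).

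The same ratio was 1.07 on 3L, 1.04 on 3R and 1.11 on X. The 2L difference exceeded that of 3R by 0.16 on the log2 scale (95% interval 0.02 to 0.29, adjusted p = 0.0760 over the 3 interaction terms, n = 2071 peaks). It exceeded that of 3L by 0.12 (-0.07 to 0.31, adjusted p = 0.344) and that of X by 0.07 (-0.08 to 0.21, adjusted p = 0.370, n = 2071 peaks). No interaction passed, so the difference is not shown to be particular to 2L.

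The 5 widest peaks of 2L all had a neighbour within 1 kb of an edge. The widest, chr2L:852043-854484 (2442 bp), lay 0.468 kb from a peak of 1694 bp in the same run. The next, chr2L:5981359-5983620 (2262 bp), was the last peak of its run and lay 0.108 kb from the peak before it. The others were chr2L:12433632-12435823 (2192 bp, neighbour at 0.458 kb), chr2L:6047076-6048950 (1875 bp, 0.845 kb) and chr2L:1183580-1185385 (1806 bp, 0.275 kb). The 3 narrowest stood farther off. They were chr2L:17473625-17473935 (311 bp, nearest neighbour at 6.49 kb), chr2L:17536583-17536899 (317 bp, 52.1 kb) and chr2L:7976690-7977017 (328 bp, 14.2 kb). The second of these formed the telomere-side edge of an empty stretch of 426 kb. The heterochromatic sequence 2LHet, listed apart from 2L, carried 1 further peak, which was not counted here.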

How the data were processed

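ChIP-seq of BEAF-32 in wing discs gave 4 ChIP and 2 input libraries. Bowtie 0.12.5 is the only tool named, per the submitters' processing notes. How peaks were called, at which threshold, whether the input or pooled libraries were used, and on which build, is not given in the sources used here. Start and end coordinates in bp make up the deposited list, which was read as BED (starts from 0). It has no header, score or coverage, so sequencing depth is unknown and stricter calling could not be tried. The members and the named-peak rule were chosen with earlier results of these data known.

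Peaks were assigned by midpoint. Each arm was taken to end with its last peak. On 3R the telomere lies at the high coordinates, so its positions were turned round. Density was modelled in 94 full 1-Mb windows (quasi-Poisson, dispersion 4.14), and closeness and width over 2071 peaks with errors clustered in 98 windows (statsmodels 0.14.6, scipy 1.17.1). P-values are two-sided, adjusted by Benjamini-Hochberg over 3 arms, with a threshold of 0.05. The models were tested on simulated data. Named peaks were the first and last, the 5 widest and 3 narrowest, the edges of the 10 longest stretches, runs of 4 or more and peaks alone within 100 kb. A few of these were named and the rest summarised. Sequence was not used, since no genome of the build was at hand. Alternatives were window size and shift, error model, merging at 500 bp, wider peaks, linking distance and arms without an end.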

Additional observations from a re-analysis of the deposited data

How the results depend on the processing

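Of 65 recomputed tests, 50 kept their direction and their side of the threshold, 10 passed only under the alternative, 3 no longer passed and 2 turned round. For density (natural log of the ratio, 2L over the other arm), the values against 3L and 3R passed with 0.5-Mb windows (-0.256 and -0.252), with windows shifted by 0.5 Mb (-0.315 and -0.295), with the exact binomial test, which takes peaks as independent (-0.258 and -0.265), and without the telomere 2 Mb (-0.322 and -0.354). Against X the value was -0.376 and no longer passed among peaks at or above the median width. All models of window counts shared 1 dispersion across the arms, although the 2L windows varied most. For the log odds of another peak within 5 kb, a distance of 2 kb gave -0.384 against X, which no longer passed, and turned the uncalled value against 3R to 0.0539. Without the telomere 2 Mb the value against 3L was -0.551 and passed. For log2 width without the telomere 2 Mb, the value against 3R was -0.108 and passed, and the uncalled value against X turned to -0.0186. The log2 width difference of close peaks on 2L was 0.152 at 2 kb and no longer passed. Runs of 4 or more numbered 0 with linking at 2 kb, 19 at 10 kb, 1 after merging and 2 among the wider peaks, which formed 23 runs and had 30.5% of their number in the first of the 5 segments, against 23.2% of all 2L peaks. The cause of these changes was not tested, except that wider peaks are fewer by construction. Leaving out the telomere 2 Mb also takes away the densest window of 2L, with 46 peaks. No paired analysis was possible because the list carries no value per library. With no score and no depth, which sites a stricter threshold would lose is unknown.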
